A study of Cynodon dactylon with 6 samples.

Results

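A set of 158 leaf transcripts of bermudagrass (Cynodon dactylon, a heat-tolerant grass grown for turf and forage) was low after 2 h of heat and back near the unheated level after 12 h, on the scale described next. The set was taken from 111743 unigenes, the gene-level units to which reads had been assigned. Members were chosen on read counts divided by median-of-ratios size factors, called normalised reads here. A member had a control mean of at least 80, a 2 h mean at or below 50% of the control mean, and a 12 h mean between 66.7% and 150% of it, with 1 added to each mean. All 6 libraries entered this choice, so the levels that follow describe the set and do not test it.

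The libraries came from leaves of wild-type seedlings 10 days old, 2 per group. The groups were unheated controls labelled 0 h, plants held at 42 °C for 2 h, and plants held at 42 °C for 12 h. Totals ran from 6313500 to 9326725 assigned reads. Squared differences between the counts of replicates were 3.46 to 6.70 times what sampling noise alone gives, so no library had been entered again as its own replicate. The labels do not say whether replicates were separate plants or pools, so p-values measure only the spread between these libraries. No unheated sample of a later hour was analysed here, so hours of heat and time of sampling cannot be told apart.

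In plants, a sudden rise in temperature activates heat shock transcription factors, which induce chaperone genes, while many other transcripts are lowered through reduced transcription and faster decay. In Arabidopsis the exoribonuclease XRN4 takes part in such decay. As plants acclimate, the first wave of the response subsides and part of the transcripts lowered at first is made again. No source used here pairs the unigene IDs with gene names or sequences, so no role is given to any member and leaf marker genes could not be checked.

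The set as a whole took a small share of the leaf transcriptome. Its members took 0.750% and 0.702% of the reads of the control libraries, 0.299% and 0.305% of those of the 2 h libraries, and 1.03% and 1.01% of those of the 12 h libraries. By share of reads the set was thus lowest in both 2 h libraries and stood above both controls in both 12 h libraries. In normalised reads the summed level of the control libraries was 65571 ± 2753, that of the 2 h libraries 26724 ± 987 and that of the 12 h libraries 61528 ± 2019 (SD, n = 2 each). On that scale the 12 h libraries lay just below the controls. In bulk leaf tissue, fewer cells of a type and less RNA per cell cannot be told apart.

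Single members covered a wide range of abundance. Control means ran from 81.6 to 5874 normalised reads, with a median of 229, and the most abundant member ranked 150 among the 11200 unigenes with a control mean of at least 80. The 10 most abundant members held 36.8% of the summed control level. The fewest reads behind any member value were 19, in replicate 1 of the 2 h group, so no member was near the level at which a count of 0 matters.

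The fall at 2 h was mostly shallow. The 2 h mean of a member was between 12.1% and 49.9% of its control mean, with a median of 44.6% and quartiles of 40.1% and 47.8%. Of the 158 members, 75 kept more than 45% of the control level, 45 kept 40% to 45%, 19 kept 33.3% to 40%, 17 kept 25% to 33.3% and 2 kept less. Most members therefore lay close to the limit of the rule, and 94 further unigenes with the same return fell just short of it, at 50% to 55% of control. The member nearest to that limit kept 49.9% and the nearest unigene outside it kept 50.03%.

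The 2 h libraries resembled each other in this respect. The median member stood at 44.1% of its control mean in 2 h replicate 1 and at 43.3% in replicate 2, where all unigenes with a control mean of at least 80 had medians of 94.3% and 93.3%. In every member both 2 h libraries lay below both controls and below both 12 h libraries. Among all 11200 unigenes of that abundance this held for 17.8%, and the means used by the rule favour it in the members. The 2 h replicates of a member differed by a median of 0.19 on the log2 scale, against 0.16 over all 11200.

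**Figure D1:**
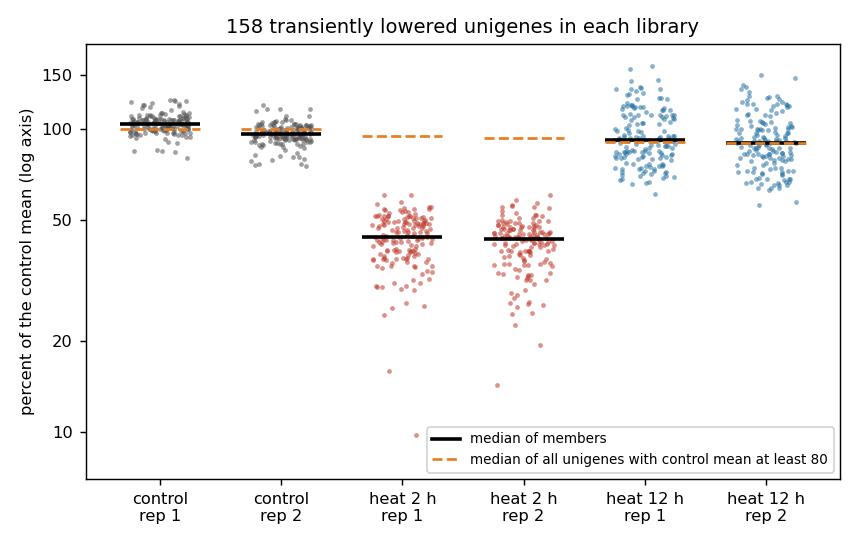
Level of each of the 158 members in each of the 6 libraries, as percent of its control mean on a log axis. Black bars are medians of the members and dashed bars are medians of all 11200 unigenes with a control mean of at least 80. Member medians lie at 44.1% and 43.3% in the 2 h libraries, and at 91.6% and 89.4% in the 12 h libraries, close to the dashed bars there. The rule bounds the members at both times.

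After 12 h the median member stood where the median of all leaf unigenes of its abundance stood, slightly below control, and single members were spread on both sides of it. The 12 h means of members ran from 66.7% to 147% of control with a median of 90.4%, and the median of all 11200 unigenes of that abundance was 90.5%. Of the members, 40 stood below 80%, 67 at 80% to 100%, 34 at 100% to 120% and 17 above 120%. The 12 h libraries of 60 members overlapped the controls, 69 members had both 12 h libraries below both controls, and 29 had both above. Over the 11200 unigenes these shares were 16.5%, 48.9% and 34.6%. At the limits of the return, the nearest values inside were 66.7% and 147%, and the nearest outside were 66.6% and 153%.

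The gain from 2 h to 12 h ranged from 1.37-fold to 11.7-fold, with a median of 2.16-fold and quartiles of 1.82-fold and 2.61-fold. Across the 158 members the log2 ratios to control at the 2 times had Pearson's r = -0.05 and Spearman's rho = 0.01. These ratios share their control mean, and the choice of members limits both.

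**Figure D2:**
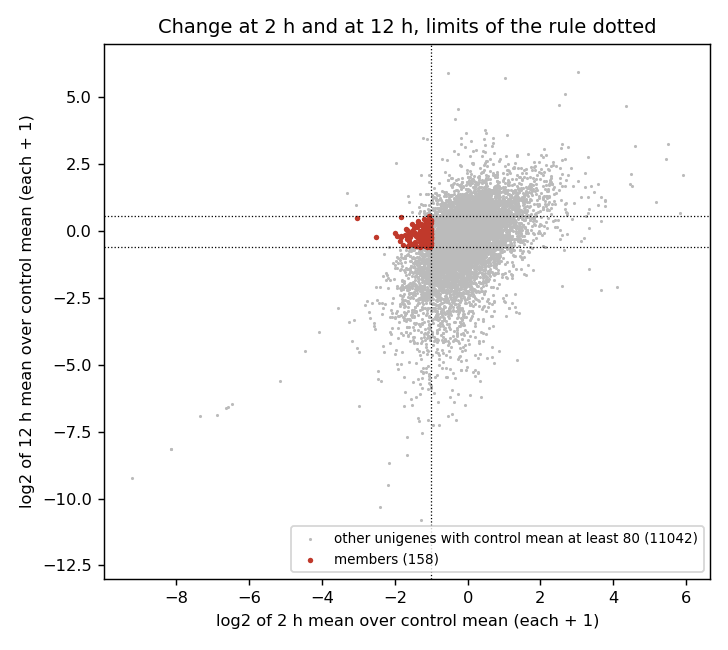
Log2 ratio to control at 2 h (horizontal) and 12 h (vertical) for the 158 members and the other 11042 unigenes with a control mean of at least 80. Dotted lines are the limits of the rule. Members fill the small field of 2-fold falls between the horizontal limits, most of them next to the vertical one.

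The deepest fall of the set was that of unigene c83748_g1. It had 327 and 316 normalised reads in the controls, 30.6 and 45.3 after 2 h, and 433 and 472 after 12 h. Both 2 h libraries were far below the controls, and both 12 h libraries were above them. Its log2 fold change was -3.07 ± 0.18 at 2 h and 3.54 ± 0.18 from 2 h to 12 h (SE; edgeR adjusted p = 2.08e-07 and 1.22e-08). After 12 h it stood 0.46 ± 0.14 above control on the log2 scale (edgeR adjusted p = 0.0136), a call lost when either control library or 12 h replicate 2 was left out (adjusted p = 0.0632 to 0.0865) and with DESeq2 (adjusted p = 0.119).

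The next deepest fall belonged to c87851_g1, a less abundant unigene. Its normalised reads were 179 and 152 in the controls, 25.5 and 31.3 after 2 h, and 144 and 144 after 12 h. It returned to a level slightly under both controls. The log2 fold change was -2.54 ± 0.21 at 2 h and 2.30 ± 0.21 from 2 h to 12 h (SE; edgeR adjusted p = 2.88e-06 and 2.08e-06). The difference from control at 12 h was -0.24 ± 0.16 (edgeR adjusted p = 0.246), and with libraries scaled to their totals it turned to 0.38 (adjusted p = 0.0701).

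The largest gain in reads from 2 h to 12 h was that of c75450_g1, the most abundant member. It had 5673 and 6076 normalised reads in the controls, 2291 and 1973 after 2 h, and 7017 and 5843 after 12 h. The 12 h libraries overlapped the controls. In the authors' FPKM, which also divide by unigene length and library total, it went from 773 ± 34.9 to 277 ± 18.5 and 1281 ± 135 (SD, n = 2 each). Its log2 fold change was -1.46 ± 0.13 at 2 h and 1.56 ± 0.13 from 2 h to 12 h (SE; edgeR adjusted p = 4.02e-06 and 8.40e-07). After 12 h it was 0.10 ± 0.12 from control (edgeR adjusted p = 0.515), and the sign of that difference turned to -0.038 without 12 h replicate 1. With library totals the difference was 0.71 and became a call (edgeR adjusted p = 6.61e-05).

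Unigene c82963_g1 had the next largest gain. Its normalised reads were 3079 and 3146 in the controls, 964 and 1192 after 2 h, and 3631 and 3859 after 12 h. Both 12 h libraries lay above both controls. The log2 fold change was -1.53 ± 0.12 at 2 h, 1.77 ± 0.12 from 2 h to 12 h and 0.24 ± 0.12 at 12 h against control (SE; edgeR adjusted p = 2.45e-06, 2.49e-07 and 0.115). The last became a call with library totals (0.85, adjusted p = 1.19e-04) and without a filter on low counts (0.34, adjusted p = 0.00541).

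**Figure D3:**
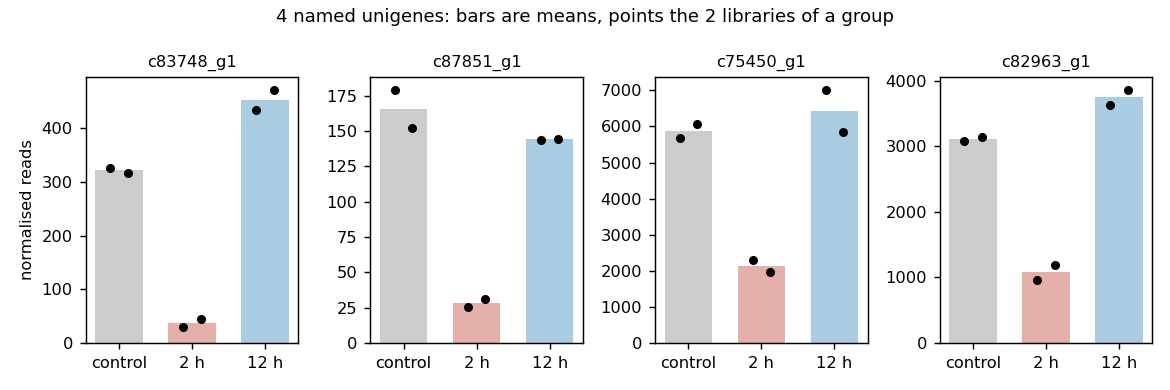
Normalised reads of the 2 members with the deepest falls (c83748_g1 and c87851_g1) and the 2 with the largest gains from 2 h to 12 h (c75450_g1 and c82963_g1). Bars are group means and points the 2 libraries of a group. In all 4 the 2 h points lie below all others, and the 12 h points lie above, below or across the control points.

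The edgeR quasi-likelihood fit over all 25828 unigenes tested (Benjamini-Hochberg adjusted p below 0.05) called 156 of the 158 members lower after 2 h, where 14.4% of all unigenes were called lower. It called 149 higher at 12 h than at 2 h, where 22.9% of all were. These contrasts chose the members, so the counts only describe them. Against control at 12 h, 40 members were called, 9 higher and 31 lower, where 52.0% of all unigenes were called, 27.6% higher and 24.4% lower. The rule bounds this difference as well. The count of 40 was 18 without control replicate 1, 25 without control replicate 2 and 25 without 12 h replicate 2, where 35.8%, 37.1% and 42.5% of all unigenes were called. It was 20 with DESeq2 and 88 with library totals, where 40.5% and 64.8% of all were called.

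The joint pattern of a call lower at 2 h, a call higher between the times and no call at 12 h was met by 111 members, or 70.3% of the set. Over all unigenes 624 met them, 2.42% of those tested, and members made up 17.8% of these. Of the 624, 451 had a control mean of at least 80, and 340 of these had fallen less than 2-fold. With library totals 68 members met the 3 calls, and the count over all unigenes is not given for that scaling. The change from 111 to 68 is therefore not read as a trait of the members. A unigene not called may still differ from control.

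A return was the less common outcome of a fall at 2 h. Of the 11200 unigenes with a control mean of at least 80, 895 fell at least 2-fold at 2 h. Of these, 158 (17.7%) were the members, 706 (78.9%) stood below 66.7% of control at 12 h, and 31 (3.46%) stood at 150% or above. Among all 11200, 50.5% were between these limits at 12 h. Of the 706 under the lower limit, 43 stood at 60% of control or more at 12 h, while 20 members stood just above that limit, below 72%. The 706 that stayed low had a median of 40.2% of control at 2 h and 24.2% at 12 h. They had a larger weight in the leaf, with 14.4% ± 0.280 of the control reads, 5.72% ± 0.137 after 2 h and 3.68% ± 0.110 after 12 h (SD, n = 2 each).

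The share of fallers that returned was lowest in the class of deepest falls. Among unigenes left with less than 25% of control at 2 h, 2 of 69 (2.90%) were members, against 17 of 153 (11.1%), 19 of 172 (11.0%), 45 of 214 (21.03%) and 75 of 287 (26.1%) in the successively shallower classes. Both ratios use the same controls, which ties them together. With the fall read against control replicate 1 and the return against replicate 2, the share was 10.5% in the deepest class and 28.9% in the shallowest. With these controls exchanged it was 9.59% and 23.8%, with 6.87% in the second class. With library totals the shares from deepest to shallowest were 3.57%, 22.0%, 24.1%, 31.9% and 32.5%, so that the classes above the deepest lay closer together. The third class moved to 19.2% without control replicate 2 and to 19.05% without 2 h replicate 2. The deepest class, of 69 unigenes with 2 members, moved to 5.48% without control replicate 1, 4.65% without control replicate 2, 5.49% without 2 h replicate 1 and 4.35% without 12 h replicate 1. In each of these alternatives but that with exchanged controls the deepest class had the lowest share, and no test was made of the order.

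The control level went with the return in a similar way. Of the fallers with a control mean of 80 to 640 normalised reads, 138 of 585 (23.6%) were members, against 11 of 122 (9.02%) at 640 to 1300 and 9 of 188 (4.79%) above that. Within the lowest of these ranges the share was 21.8% at 80 to 160, 27.6% at 160 to 320 and 21.7% at 320 to 640, with no steady order. With library totals the shares of the 3 ranges were 33.9%, 19.5% and 8.92%, and with the controls used apart they were 28.8%, 14.7% and 7.11%, or 23.3%, 6.78% and 4.44%. These shares are descriptions.

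**Figure D4:**
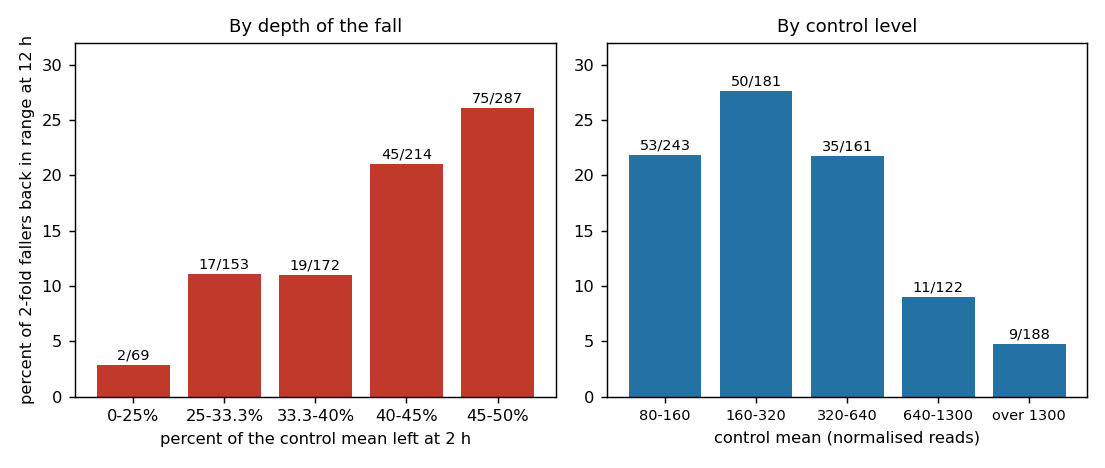
Percent of the 895 unigenes with a 2-fold fall at 2 h that were back between 66.7% and 150% of control at 12 h, by the percent of control left at 2 h (left) and by control mean in normalised reads (right). Numbers above the bars are members over fallers. The share runs from 2.90% to 26.1% across the depth classes, and is 4.79% for the most abundant fallers.

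The mirror course, a rise at 2 h of at least 2-fold with a return to the same range, was taken by 263 of 767 unigenes of that abundance (34.3%), against 17.7% of the fallers. This order depended on the scaling of the 12 h libraries. With library totals it turned, to 15.7% of risers and 26.8% of fallers.

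The scaling of the 12 h libraries sets what counts as recovered. Size factors were 1.35 and 1.57 in the 12 h libraries, against 1.01 and 0.696 in the controls, at totals that differed less. With library totals alone the median member stood at 45.6% of control after 2 h and at 135% after 12 h. The medians of all unigenes with a control mean of at least 80 were then 95.7% and 134%. On this scale 51 of the 158 members exceeded 150% at 12 h and 157 exceeded the control mean, in place of 51 above the control mean with size factors. In the authors' FPKM the medians of the members were 44.03% and 136%. Over these scalings and that by trimmed mean of M-values (TMM), the median log2 ratio of the members was between -1.18 and -1.13 at 2 h. At 12 h it differed from the median of all by at most 0.02. A scaling multiplies all unigenes of a library nearly alike, so both medians move together whatever the set. The rule also bounds the members at 12 h.

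**Figure D5:**
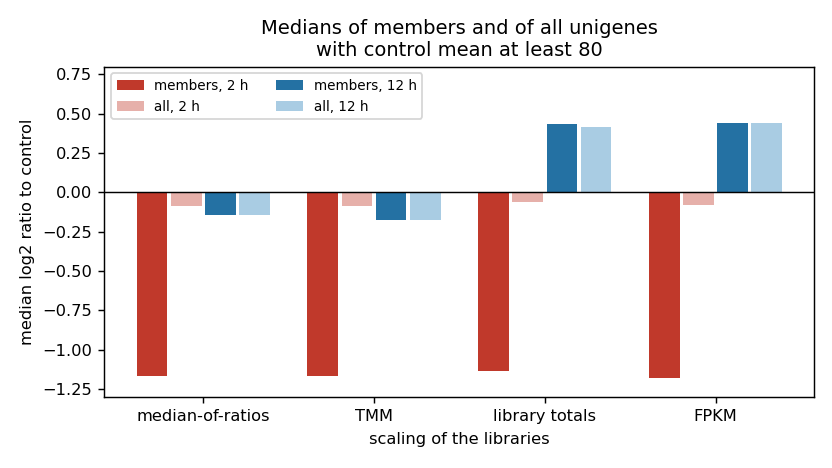
Median log2 ratio to control of the members and of all unigenes with a control mean of at least 80, at 2 h and 12 h, under 4 scalings of the libraries. At 2 h the members lie at -1.17, -1.17, -1.13 and -1.18. At 12 h members and all unigenes lie at -0.15 and -0.14 with size factors and at 0.44 and 0.44 in FPKM. A scaling multiplies all unigenes of a library nearly alike, so both move together.

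The pattern was also read in libraries that had no part in choosing the unigenes. When the rule was applied to the replicate 1 libraries alone it chose 190 unigenes, 122 of them members. The 190 had medians of 42.95% of control at 2 h and 88.2% at 12 h in those libraries. In the replicate 2 libraries the same unigenes had medians of 49.5% and 101%. Of the 190, 185 were lower at 2 h than in the control of replicate 2, 98 by at least 2-fold, and 186 were higher at 12 h than at 2 h. Over all unigenes with at least 80 normalised reads in that control, 57.2% were lower at 2 h, 8.80% by at least 2-fold. Higher at 12 h than at 2 h were 43.03% of them. Of the 190, 167 reached that control level, and 164 stood at 66.7% to 150% of that control at 12 h. By group means, 50.5% of the 11200 unigenes stood in that range.

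The reverse choice gave a similar picture. The replicate 2 libraries chose 193 unigenes, 116 of them members. The medians of the 193 were 43.4% and 89.4% in those libraries and 47.03% and 89.2% in replicate 1. Of the 193, 192 were lower at 2 h in replicate 1, 113 by at least 2-fold, and 190 were higher at 12 h than at 2 h. The shares of all were 56.7%, 8.40% and 44.3%. In replicate 1, 180 of the 193 had at least 80 normalised reads in the control, and 148 stood within the 12 h limits. The dip was shallower in the libraries not used for the choice, and 85 unigenes met the whole rule in both. The direction at 2 h thus carried over for nearly all of these unigenes, and the exact membership did not. With 2 libraries against 2, an exact two-sided permutation test of a single value cannot give a p below 0.333, so none is given.

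Length and component membership had no part in the rule, and are given without a test. The unigene length implied by reads, FPKM and library total had a median of 1410 bases in the members (quartiles 1002 and 2059), 1492 bases over the 11200 unigenes of that abundance and 1337 bases in the 706 that stayed low. The median control level per length was 16.8 FPKM in the members, 19.9 over the 11200 and 40.2 in those that stayed low. The control level entered the rule, so this value is not independent of it. Of the members, 52 (32.9%) belonged to a component, an assembly group of related sequences by the form of the ID, with more than 1 unigene, against 37.5% of the 11200 and 39.8% of those that stayed low.

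The components of the members also held other unigenes, which may be related copies or pieces of the same gene. The 158 members lay in 154 components, 4 of which held 2 members. In these 4 pairs the members kept 41.8% and 41.1%, 42.1% and 44.6%, 42.5% and 38.5%, and 48.6% and 30.9% of control at 2 h, and all 8 were between 74.4% and 109% at 12 h. Another 82 unigenes of the 154 components were no members, and 18 of them had a control mean of at least 80. Of these 18, 1 fell at least 2-fold at 2 h and stayed low (5.56%, against 7.99% of the 11200), 10 stood between 50% and 100% of control and 7 between 100% and 200%. Their medians were 90.7% at 2 h and 107% at 12 h. Fallers that returned counted as members, so the 18 could hold none, while the 7.99% includes the members. The shares are therefore not alike. Unigenes of a component may share reads, so such values are not independent.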

How the data were processed

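Leaf RNA sequencing gave 6 libraries in 3 groups of 2. The authors deposited estimated counts per unigene, not normalised, 99.3% of the values above 0 being whole, and FPKM, which divide by library total and unigene length. The submitters' processing notes name DESeq 1.18.0, HTSeq 0.6.1, TopHat2 2.0.12 and Bowtie2 2.2.3 without saying what each did. Assembly and counter: not given in the sources used here. Though the count sheet is named after tall fescue, its columns carry the bermudagrass labels, and all 670458 of its values are 0 or above 0 where the bermudagrass FPKM are. Size factors came from 18038 unigenes with at least 10 reads in every library. Estimated counts were rounded, filtered with filterByExpr (minimum count 10, total 15), scaled by TMM and fitted with edgeR 4.0.16 in R 4.3.3 (glmQLFit, robust, all libraries, 3 residual degrees of freedom), with Benjamini-Hochberg adjustment over 25828 unigenes. The planned count test was kept for the rounded values. DESeq2 1.42.0, other scalings, filters and left-out libraries were alternatives, and the edgeR fit was tested on simulated data. SEs are the log2 fold change over the square root of F. Implied lengths used values of at least 20 reads. Members, lists and tests were chosen with earlier results of these data known. The naming rule took the 2 members with the lowest ratio of 2 h to control and the 2 others with the largest gain from 2 h to 12 h.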

Additional observations from a re-analysis of the deposited data

How the results depend on the processing

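The set depended both on its own limits and on the scaling of the libraries. It held 158 unigenes with TMM scaling (154 of them members) and 209 with library totals (85 members). It held 248 in FPKM, with nothing added to the means (93 members), 105 with a control minimum of 160, 105 with a tighter range for the return, 273 with a return within 2-fold and 19 with a fall of 3-fold. Leaving out 1 library gave 149 to 191, with 109 to 152 members among them; the 109 were left without control replicate 1. The median log2 ratio of the members at 2 h was -1.13 with library totals, -1.18 in FPKM and -1.24 to -1.14 with 1 library left out. At 12 h it was -0.17 with TMM, 0.44 with library totals, 0.44 in FPKM and -0.20 to -0.079 with 1 library left out.

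Over alternatives with all libraries, 156 to 158 members were called lower at 2 h, and 138 to 158 higher between the times. These contrasts chose the members, and of all unigenes 5258 to 8683 and 8759 to 15416 were called either way. How many of all unigenes met the 3 calls together is not given for any alternative. Members called at 12 h against control numbered 20 with DESeq2, 88 with library totals and 18 to 46 with 1 library left out, where 10463, 16746 and 10017 to 13817 of all unigenes were called, and those meeting all 3 calls numbered 68 with library totals. Over all unigenes 4230 to 7877 were called at 2 h with 1 library left out, in place of 7425, the lowest without control replicate 1. The share of fallers back in range was 26.8% with library totals and 22.7% with the fall read against control replicate 1 and the return against replicate 2. That of risers was 15.7% with library totals, 38.4% with the controls so split, and 33.1% to 38.7% with 1 library left out; these alternatives were added after seeing the data. Of 132 alternative values for the 4 named unigenes, 123 kept direction and side of the threshold. Exceptions were all at 12 h against control: c75450_g1 ran from -0.038 (without 12 h replicate 1, a turn of sign) to 0.23 with 1 library left out and was 0.71 and called with library totals, c87851_g1 turned to 0.38 with library totals, and 4 calls were lost and 3 gained.

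Replicate numbers are shared across groups, but nothing says that they pair libraries. Deviations of same-numbered libraries from their group means correlated at 0.01, 0.04 and 0.29. With the replicate number as a block, 8683, 14496 and 12928 unigenes were called at 2 h, at 12 h and between the times, in place of 7425, 13422 and 11809. Of the members 156, 51 and 155 were then called, and 104 met all 3 calls. At the lowest member count, 19 reads, sampling noise can still decide whether a unigene near a limit of the rule was a member.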
